A study of Mus musculus with 18 samples.

Results

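Mouse genes whose symbols are Zfp followed by a number encode proteins with zinc fingers, short loops that a zinc ion holds between cysteines and histidines and that can bind DNA or RNA. The members described here were chosen by their symbol and by their measured level. They are genes named exactly Zfp plus digits, without Zfp36 and Zfp42, that reached at least 5 CPM (counts scaled to a library total of 1000000) in at least 3 of 18 libraries. Of 51467 genes in the count table, 372 had such a symbol, 213 were members and 159 fell below the level, 22 of these with no read at all. On the side below the threshold, the third-highest CPM was 4.684 for Zfp658 and Zfp493 and 4.553 for Zfp345, and on the side above it was 5.069 for Zfp286 and 5.248 for Zfp637 and Zfp334. The level was reached in all 18 libraries by 98 members and in at least 3 libraries of both genotypes by 181, whereas 14 members reached it in fewer than 3 wild type (WT) libraries and 23 in fewer than 3 knockout (KO) libraries. Members of the last kinds could pass through the group in which they were high, so counts are also given below for the 181 and the 98.

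The libraries came from embryonic stem cells (ESCs) of 2 genotypes, WT (the V6.5 line) and Dgcr8 KO, both grown with serum, LIF and the 2 inhibitors known as 2i and both exposed to cycloheximide, which holds ribosomes on messages, before lysis. DGCR8 is needed to process primary microRNA transcripts, and ESCs without it lack canonical microRNAs. Each of 6 sucrose gradients, 3 per genotype, was divided into monosomes, low polysomes (2 to 4 ribosomes) and high polysomes (4 or more ribosomes), and the RNA 3′ ends of each fraction were sequenced, which made 6 groups of 3 libraries with 1151649 to 4984833 counts each. The Dgcr8 KO cells are described as 1 established line, so the genotype cannot be told apart from other differences between the lines. The labels do not say whether gradients came from separate cultures, and the p-values measure the spread between these samples only. In such bulk samples, fewer cells that express a gene and less RNA per cell cannot be told apart.

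Many members are KRAB zinc finger proteins. In these, a KRAB box at the amino end recruits the corepressor TRIM28 (also called KAP1), which brings in the histone methyltransferase SETDB1 and heterochromatin proteins, while an array of fingers reads the DNA, often in a retroelement or an imprinted locus. Mammalian genomes hold large and fast-evolving clusters of such genes, and in ESCs they keep retroelements silent and protect imprints. Other members have no KRAB box and act as activators, cofactors, RNA-binding proteins or ribosome factors. Of the 213 members, 212 are annotated as protein-coding and 1, Zfp264, as a transcribed pseudogene. Letters of the KRAB box were found in the translated coding sequence of 88 members and not in that of 124. The coding sequences held a median of 9 fingers and up to 33, in Zfp142 and Zfp462, and 168 members had at least 5. The pattern found no finger in 6 members, which were Zfp185, Zfp330, Zfp365, Zfp451, Zfp703 and Zfp839. Chromosome 7 carried 57 members and chromosome 17 carried 22, and 111 members lay in 34 clusters in which the next member was within 250000 bases.

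The coding DNA of 1 finger shows what the members share. The first finger matched is given for Zfp57, a KRAB protein, for Zfp664, which has an array of 9 fingers without KRAB letters, and for Zfp281, which has 3, and the codons of the paired cysteines and histidines are in capitals. On GRCm38, the Zfp57 finger lies at chr17:37009679-37009741, in exon 5 of 5, the Zfp664 finger at chr5:124885556-124885618, in exon 4 of 4, and the Zfp281 finger at chr1:136626063-136626125, in exon 2 of 2, all on the plus strand.
Zfp57: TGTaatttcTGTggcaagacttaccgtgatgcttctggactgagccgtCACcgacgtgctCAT
Zfp664: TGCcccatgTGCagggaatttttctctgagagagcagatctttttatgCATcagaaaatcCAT
Zfp281: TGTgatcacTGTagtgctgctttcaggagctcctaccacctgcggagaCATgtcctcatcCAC
All 3 fingers had 63 bases in this pattern and lay in the last exon of their gene.

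A second set of sequences concerns the microRNAs that Dgcr8 KO cells lack. The ESC-specific cell cycle-regulating (ESCC) microRNAs, which are abundant in ESCs, share 1 seed, and a message with a match to it in the 3′ untranslated region (UTR) can be repressed and destabilised. The mature sequences of 5 of them, from RefSeq on GRCm38.p6, are given with bases 2 to 8 in capitals.
mmu-miR-291a-3p: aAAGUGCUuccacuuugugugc
mmu-miR-294-3p: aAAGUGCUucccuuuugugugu
mmu-miR-295-3p: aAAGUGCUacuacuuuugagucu
mmu-miR-302b-3p: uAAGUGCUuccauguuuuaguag
mmu-miR-302d-3p: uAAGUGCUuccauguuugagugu
The letters GCACTT, which pair with bases 2 to 7, were searched on the sense strand of the 3′ UTRs. They were present in 70 of 212 members (33.0%), against 30.0% of 11768 protein-coding genes tested. With the base before them that pairs with base 8, AGCACTT was present in 43 members (20.3%), against 15.4% of the genes tested. A match is only a description of the letters.

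For each gene, the log2 ratio of high polysomes to monosomes is called its translation level, and a gene was called at a limma adjusted p under 0.05 and an absolute log2 difference over 1. In WT cells, 66 of 213 members were called lower in high polysomes than in monosomes, where 19.3% of all 12851 genes tested were called lower. Only 2 members, Zfp422 and the sparse Zfp423, were called higher, where the share over all genes was 10.7%, and the call of Zfp423 was lost without WT replicate 3 (limma adjusted p = 0.229). A member could reach the CPM level through monosomes alone, where it is high, which fixes a low ratio, so these counts and medians describe the list and do not support a low translation level. The median translation level was −0.56 over the members, −0.01 over all genes tested and −0.08 over the 4271 genes in the middle CPM range of the members. In Dgcr8 KO cells, 91 members were called lower (25.5% of all genes) and 6 higher (17.5% of all genes), with a median of −0.75 over the members and −0.07 over all genes. The members median in the 3 single WT gradients was −0.49, −0.54 and −0.54, and in the 3 KO gradients −0.63, −0.73 and −0.69. All 3 KO gradients were thus below all 3 WT gradients, by less than the distance of either from the all-gene medians, which were 0 to 0.02 in WT and −0.07 to −0.04 in KO gradients.

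The 98 members that reached the level in all 18 libraries did not pass through 1 fraction, and only their shares called lower were near those of all genes. In WT cells 15 of them (15.3%) were called lower and 0 higher, with a median of −0.32, and in KO cells 26 (26.5%) were called lower and 4 higher, with a median of −0.39. Their share called lower was thus below that of all genes in WT cells and near it in KO cells, while the share called higher and the median were below those of all genes in both. A level required in high polysomes as well leaves out genes that are low there, whereas all genes tested needed only 3 CPM in 3 libraries. These shares are set side by side under unlike filters and do not settle whether members are low. The 181 members that passed in both genotypes could still pass through monosomes, and 53 of them were called lower and 1 higher in WT cells and 73 lower and 6 higher in KO cells. Of the 213, 49 were called lower in both genotypes, 17 in WT alone and 42 in KO alone, and those called in 1 genotype are not shown to differ between them. These overlaps have no matching count over all genes tested and describe the list only. Over all genes, the share called lower was also larger in KO cells, at 25.5% against 19.3% in WT cells.

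**Figure D1:**
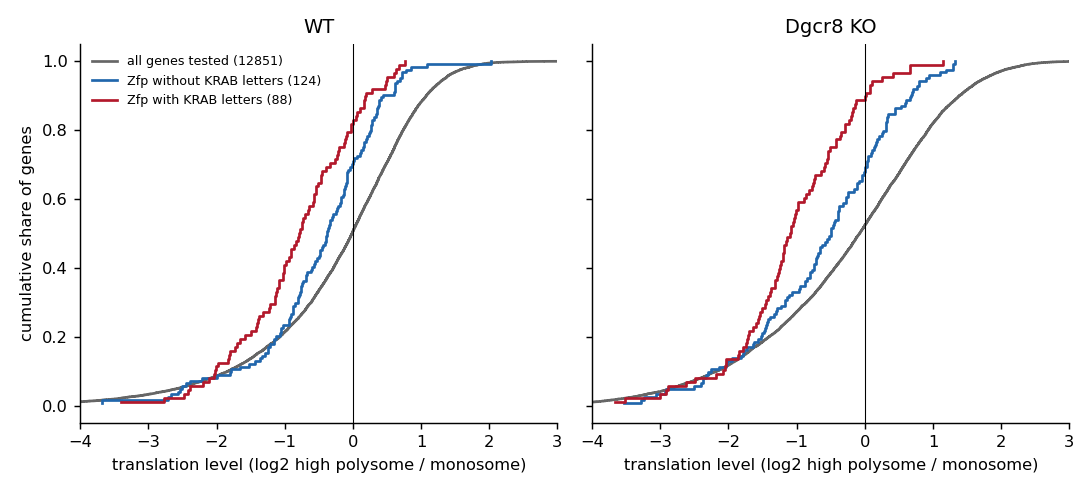
Cumulative share of genes (y axis) by translation level (x axis, log2 of high polysomes over monosomes) in WT and Dgcr8 KO cells, for all 12851 genes tested, 124 Zfp genes without KRAB letters and 88 with them. The curve of genes with KRAB letters lies to the left in both genotypes, with medians of −0.78 in WT and −1.09 in KO cells.

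Members with KRAB letters had lower medians than the others. A larger share of them could have passed through monosomes alone, which fixes a low ratio. Only 24 of the 88 reached the level in all 18 libraries, against 74 of the 124 without the letters. In WT cells 36 of the 88 were called lower and 0 higher, with a median translation level of −0.78, against 29 lower and 2 higher of the 124 without the letters, with a median of −0.37. In KO cells 50 of the 88 were called lower and 1, Zfp568, higher, with a median of −1.09. Of the 124, 40 were lower and 5 higher, with a median of −0.50. The shares called lower were 40.9% and 23.4% in WT cells, against 19.3% of all genes. In KO cells they were 56.8% and 32.3%, against 25.5%. Within each of 3 ranges of coding length, the WT median was lower with KRAB letters than without them. It was −0.77 against −0.29 at 228 to 1497 coding bases, −0.97 against −0.48 at 1500 to 1929 bases and −0.66 against −0.39 at 1935 to 8094 bases. Members with KRAB letters were also less abundant, at a median of 9.09 CPM against 18.6 CPM. The part of abundance and of passing through monosomes in the result was not tested. Across the 88 the WT translation level had a Spearman correlation of −0.036 with the mean CPM, and across the 124 one of 0.209. These correlations are across genes of the same libraries. Among the 98 members that passed in all libraries, a split made after seeing the data, 7 of 24 with KRAB letters were called lower in WT cells, with a median of −0.54, against 8 of 74 without them, with a median of −0.22, and the KO medians were −0.82 and −0.26.

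Zinc finger genes with other names were looked at in the same way. Over 168 genes tested with at least 5 fingers that were not members, 39 (23.2%) were called lower and 1 higher in WT cells, with a median of −0.55. In KO cells 46 (27.4%) were lower and 7 higher, with a median of −0.52. The shares called lower were near the 19.3% and 25.5% of all genes. The 72 of these that held KRAB letters had medians of −0.62 in WT and −0.73 in KO cells. Those without the letters, 96 genes, had −0.53 in WT and −0.23 in KO cells. Zbtb genes, in which a BTB domain precedes the fingers, had medians of −0.35 and −0.22 over 34 genes. Klf genes, which encode a short array of 3 fingers, had 0.08 and 0.03 over 13 genes. Among Zscan and Zkscan genes, which carry a SCAN domain, the medians over 15 genes were −0.94 and −0.47. Among members, those with 1 to 4 fingers had a WT median of −0.26 (38 genes), those with 5 to 9 of −0.60 (65 genes), those with 10 to 14 of −0.70 (69 genes) and those with 15 or more of −0.57 (34 genes).

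**Figure D2:**
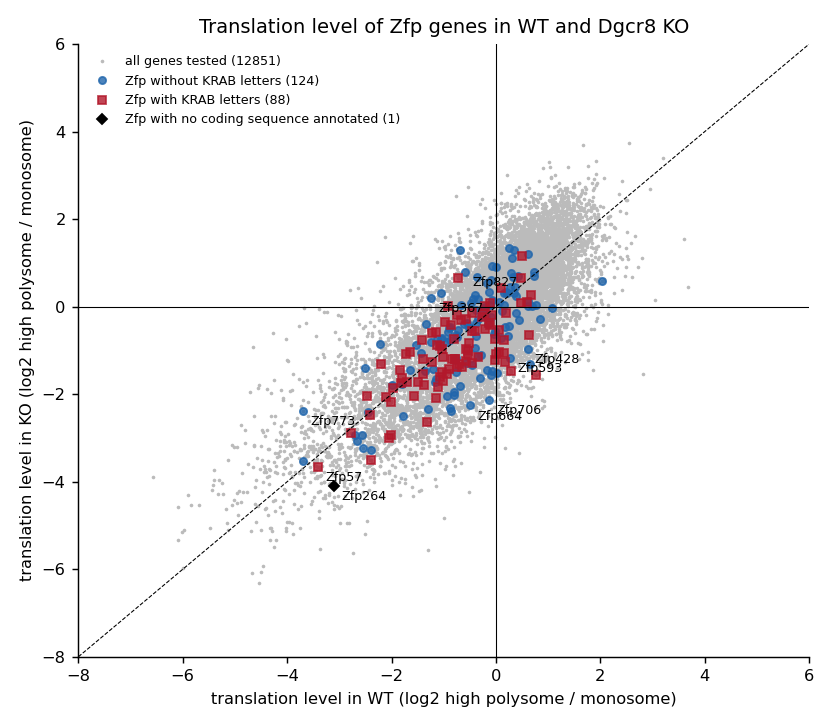
Translation level (log2 of high polysomes over monosomes) in WT cells (x axis) and Dgcr8 KO cells (y axis), for all 12851 genes tested (grey), Zfp genes with (red squares) and without (blue circles) KRAB letters, and the pseudogene Zfp264 (black). The dashed line marks equal values. Zfp57 lies on the far lower left with −3.41 in WT and −3.66 in KO cells.

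The lowest translation levels in WT cells, among members called with a mean count of at least 50, belonged to Zfp57, Zfp264 and Zfp692. Zfp57 binds methylated imprinting control regions and keeps imprints through TRIM28. Its CPM, like those of single genes from here on, are scaled by TMM factors. It had 190, 214 and 217 CPM in WT monosomes, 31.4, 39.1 and 41.8 in low polysomes and 16.8, 25.6 and 16.9 in high polysomes. Monosome libraries stood far above both polysome fractions, with no overlap. Its KO levels of 196, 249 and 175, of 29.8, 50.6 and 36.8 and of 13.9, 22.99 and 13.3 CPM overlapped the WT levels in every fraction. The translation level was −3.41 ± 0.21 (SE) in WT, a 10.6-fold difference (limma adjusted p = 2.03e-17), and −3.66 ± 0.20 in KO cells (4.20e-19), and the change of −0.26 ± 0.29 was not called (0.548). Zfp264 had −3.10 ± 0.26 in WT cells (limma adjusted p = 2.67e-13) and −4.10 ± 0.39 in KO cells (4.34e-12). Zfp692 had 89.1, 98.1 and 79.6 CPM in WT monosomes and 14.8, 15.1 and 15.6 in high polysomes, a 5.82-fold difference (limma adjusted p = 1.46e-12). Lower values, but too few counts for that rule, were found in Zfp397, at −3.69 ± 0.56 (limma adjusted p = 6.05e-07), and in Zfp773, at −3.69 ± 0.33 (2.22e-12), which is described below.

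Other genes for imprints and retroelements varied. Zfp445, which also protects imprints, had 35.5, 71.0 and 44.2 CPM in WT monosomes and 13.3, 23.8 and 11.8 in high polysomes, a level of −1.65 ± 0.24 (limma adjusted p = 2.59e-07). Its KO level was −1.05 ± 0.22 (5.39e-05), which fell short of the fold threshold without KO replicate 2, at −0.85. Zfp568, which represses a placental transcript of Igf2, went the other way. It had 119, 109 and 123 CPM in WT monosomes against 164, 172 and 160 in high polysomes, and 96.2, 103 and 97.2 against 216, 224 and 219 in KO cells. Its KO high polysome libraries were thus the highest of all. The translation level was 0.50 ± 0.13 in WT, under the fold threshold, and 1.15 ± 0.12 in KO cells (limma adjusted p = 3.83e-11), and with total counts scaling the latter was 0.90. The change, 0.65 ± 0.17, had an adjusted p of 0.00394 but was also under the fold threshold.

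Zfp809, which silences murine leukemia proviruses, had 19.4, 26.5 and 15.0 CPM in WT monosomes and 8.97, 7.21 and 11.8 in high polysomes. Its WT level of −1.13 ± 0.27 was called (limma adjusted p = 5.75e-04) but not without WT replicate 2, at −0.69 with an adjusted p of 0.0888. Zfp819, another KRAB gene linked to retroelements, had −1.03 ± 0.36 (limma adjusted p = 0.0157), which was lost without WT replicate 1, at −0.75, without WT replicate 2, at −0.92, and without KO replicate 2, at −0.97. Zfp932, which acts on endogenous retroviruses, had 11.4, 12.3 and 12.4 CPM in WT monosomes and 1.56, 2.88 and 2.23 in high polysomes. In KO high polysomes it had 0.661, 0.621 and 0.230 CPM, which is 3 counts or fewer in each library and at least 2.55-fold lower than in WT high polysomes. That call was lost without KO replicate 3 (log2 difference −1.56, limma adjusted p = 0.0943). Zfp932 reached the member level in 5 WT and 2 KO libraries, so it passed through the genotype in which it was high. Zfp708, Zfp521, Zfp503 and Zfp352, which were also looked for, were not members.

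Genes of the KRAB pathway beyond the zinc finger proteins were also listed. Over 30 of 31 corepressor genes that could be tested, 5 were called higher (16.7%, against 10.7% of all genes) and 2 lower (6.67%, against 19.3%) in WT translation level. In KO cells 11 were higher (36.7%, against 17.5%) and 2 lower (6.67%, against 25.5%). The medians were 0.43 and 0.66, against −0.01 and −0.07 over all genes. Trim28, the corepressor itself, had 531, 490 and 521 CPM in WT monosomes and 505, 421 and 416 in high polysomes, and 380, 441 and 409 against 877, 784 and 1042 in KO cells. The KO high polysome libraries were above all others and the KO monosome libraries below the WT ones, and its translation level changed by 1.34 ± 0.16 (limma adjusted p = 4.78e-08). Changes in that direction were also called for Dnmt1, the maintenance DNA methyltransferase, at 1.30 ± 0.22 (limma adjusted p = 1.24e-05), and for Chd3, a NuRD remodeller, at 1.16 ± 0.28 (0.0016). Cbx1 and Cbx3, which encode the heterochromatin proteins HP1 beta and gamma, were called the other way, at −1.46 ± 0.19 (limma adjusted p = 1.38e-07) and −1.07 ± 0.23 (5.20e-04). Setdb1 had a WT level of −1.15 and a change of 0.61 ± 0.25 that was not called (limma adjusted p = 0.0692).

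Between the genotypes, most members had no call within a fraction. Within monosomes, 7 members were called higher in KO than in WT cells and 12 lower, where 8.43% and 9.63% of all genes were. Within low polysomes 6 were higher and 26 lower, against 11.4% and 13.6%. In high polysomes 8 were higher and 33 lower, against 15.1% and 17.9%. The share of members called higher was below that of all genes in every fraction, and the share called lower was 5.63%, 12.2% and 15.5%. The medians were −0.12, −0.06 and −0.23 over members and −0.05, 0.00 and −0.08 over all genes. Over the 181 members that passed in both genotypes, 3 were higher and 10 lower in monosomes, 4 and 18 in low polysomes and 8 and 27 in high polysomes. At least 1 fraction had a call for 62 members, none of which was called in opposite directions. No call in any fraction or in the change of translation level was made for 144 members. These counts, and those of calls in all 3 fractions below, have no matching count over all genes tested and describe the list only.

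The summed level of all members, in plain CPM without TMM factors, is a further view of the same counts. In WT cells it was 6931, 7408 and 7310 CPM in monosomes, 6093, 6202 and 6376 in low polysomes and 6088, 6238 and 6106 in high polysomes. In KO cells it was 7305, 8150 and 7348, then 5479, 5774 and 5595, then 4749, 4678 and 4644 CPM. The monosome groups overlapped, while every KO library was below every WT library in both polysome fractions. Plain sums widen the high polysome difference, since the TMM factors there were 0.875 to 0.904 in KO and 1.03 to 1.07 in WT libraries. Members with KRAB letters made up 1739 ± 111 CPM (SD, n = 3) of WT monosomes and 1029 ± 67.8 CPM of WT high polysomes, and 1647 ± 132 and 798 ± 38.5 CPM in KO cells.

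A single member was called higher in all 3 fractions of KO cells. Zfp532, whose protein works in a chromatin complex with Zfp592 and Zmynd8, had 38.8, 38.7 and 40.7 CPM in WT and 86.7, 87.8 and 86.6 CPM in KO monosomes. Its low polysome values were 31.0, 23.7 and 42.1 in WT and 64.2, 73.4 and 71.2 in KO cells, and its high polysome values 24.2, 28.8 and 19.1 in WT and 50.9, 52.5 and 57.5 in KO cells. No KO library overlapped a WT library in any fraction. Genes named for the size of a difference were taken only from those whose groups do not overlap in it, so that lack of overlap adds no support. The differences were 1.137 ± 0.18, 1.15 ± 0.16 and 1.18 ± 0.18 on the log2 scale (limma adjusted p = 3.87e-06, 6.98e-08 and 2.33e-07), and the low polysome difference was 0.90 without WT replicate 2. With total counts scaling the high polysome difference was 0.96. Zfp592, the partner, was called higher in high polysomes at 1.30 ± 0.16 (limma adjusted p = 2.30e-09), with 24.2, 27.0 and 29.9 CPM in WT and 78.0, 58.1 and 67.1 CPM in KO cells.

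Called lower in all 3 fractions were 6 members, Zfp516, Zfp580, Zfp775, Zfp992, Zfp931 and Zfp365. Zfp516, known as an activator of brown fat genes, had 124, 132 and 156 CPM in WT and 42.8, 42.3 and 41.9 CPM in KO monosomes. In high polysomes it had 229, 198 and 233 CPM in WT and 48.9, 36.3 and 43.4 CPM in KO cells, a 5.13-fold difference (log2 −2.36 ± 0.13, limma adjusted p = 1.70e-18). The 2 groups were far apart in each fraction. Zfp580, a short protein of 3 fingers, had 51.8, 52.4 and 42.7 CPM in WT and 8.91, 8.01 and 8.14 CPM in KO low polysomes, a 5.76-fold difference (log2 −2.53 ± 0.22, limma adjusted p = 9.00e-13). In monosomes its difference was smaller, −1.13 ± 0.25 (3.89e-04), and −0.98 without WT replicate 2.

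Zfp775, with 11 fingers and no KRAB letters, had 42.2, 30.3 and 35.4 CPM in WT and 12.8, 7.38 and 7.44 CPM in KO monosomes, a 4.10-fold difference (log2 −2.04 ± 0.28, limma adjusted p = 1.97e-07). Its high polysome difference was of like size, −1.98 ± 0.22, and its translation level was not called, at 0.05 ± 0.20 in WT and 0.11 ± 0.30 in KO cells. Zfp992, a KRAB gene of chromosome 4, had 50.4, 43.8 and 54.8 CPM in WT and 8.91, 9.93 and 15.5 CPM in KO low polysomes, a 4.32-fold difference (log2 −2.11 ± 0.21, limma adjusted p = 2.46e-11). Zfp931 and Zfp365 were sparse, with means of 2.96 and 7.67 CPM over all libraries. Zfp931 reached the member level in 5 WT and 0 KO libraries. It thus passed through the genotype in which it was high, which favours calls lower in KO cells. Zfp931 had at most 3 counts in each KO high polysome library, which makes it at least 1.32-fold lower there. That call was lost by edgeR (adjusted p = 0.0738), by DESeq2 (0.0809) and without WT replicates 1 or 3 or KO replicates 2 or 3, at −2.02, −1.64, −1.72 and −1.46. The monosome call of Zfp365, −1.07 ± 0.32, was lost without WT replicate 2 (−0.88) and without KO replicate 2 (−0.82), with total counts scaling (−0.96) and with no filter (−0.99).

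**Figure D3:**
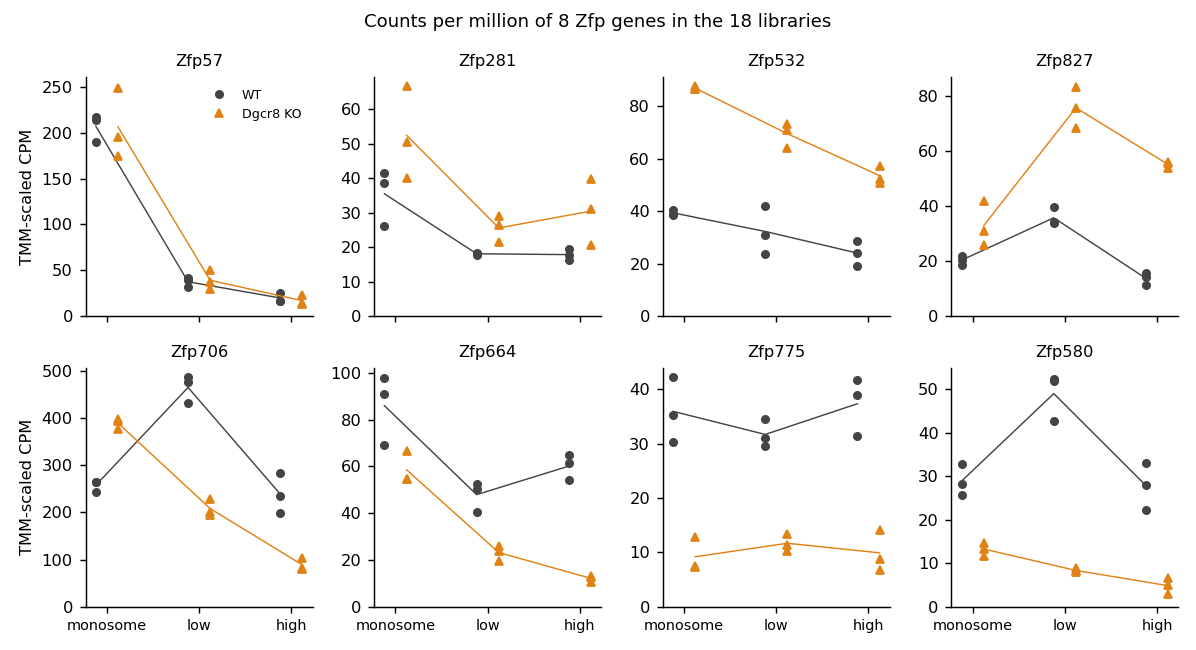
CPM scaled by TMM factors (y axes, from 0) of 8 Zfp genes in monosomes, low and high polysomes (x axes). Each point is 1 library, WT as circles and Dgcr8 KO as triangles, and lines join the means of 3. Zfp532 is higher and Zfp775 and Zfp580 are lower in KO cells in all 3 fractions, while Zfp57 falls from monosomes to high polysomes alike in both.

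Further members named for their size of change in 1 fraction were Zfp428, Zfp553 and Zfp688. Zfp428 had 148, 181 and 134 CPM in WT and 419, 500 and 376 CPM in KO monosomes, a 2.78-fold difference (log2 1.48 ± 0.14, limma adjusted p = 5.32e-11). Its high polysome libraries overlapped, at 265, 233 and 209 in WT and 189, 227 and 243 in KO cells. Zfp553 had 131, 124 and 120 CPM in WT and 249, 339 and 264 CPM in KO monosomes (log2 1.17 ± 0.13, limma adjusted p = 1.58e-09). The KRAB gene Zfp688 had 39.5, 44.6 and 36.7 CPM in WT and 11.4, 15.7 and 16.3 CPM in KO low polysomes (log2 −1.48 ± 0.20, limma adjusted p = 3.51e-08). Zfp335, a part of a histone methyltransferase complex, was called higher in high polysomes at 1.22 ± 0.19 (limma adjusted p = 8.43e-07), with 16.8, 15.9 and 25.8 CPM in WT and 41.3, 42.2 and 51.2 CPM in KO cells, and 0.99 with total counts scaling. In the small counts of Zfp423, a cofactor of early B cell factors, the WT monosome libraries held 0.670, 1.29 and 0 CPM and the KO ones 5.003, 4.27 and 3.13, at least 1.88-fold higher. That call was lost without WT replicate 1 (limma adjusted p = 0.058) and without WT replicate 3 (0.107). Zfp423 reached the member level in 0 WT and 4 KO libraries, so it passed through the genotype in which it was high.

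Among regulators of ESC genes, 1 of 6 was called in a fraction. Over all genes tested, 8.43% were called higher and 9.63% lower in monosomes. The shares were 11.4% and 13.6% in low polysomes and 15.1% and 17.9% in high polysomes. A group of 6 genes is too small to set against these shares. Zfp281, which restrains Nanog, had 26.1, 38.7 and 41.6 CPM in WT and 40.0, 66.8 and 50.5 CPM in KO monosomes, and 16.4, 17.7 and 19.4 against 31.1, 20.5 and 39.8 CPM in high polysomes, with a log2 difference of 0.74 ± 0.22 there (limma adjusted p = 0.00439), under the fold threshold, and 1.03 without KO replicate 2. Zfp217, which binds the m6A methyltransferase METTL3, was the only gene of this group called, in high polysomes, with 71.4, 60.5 and 65.6 CPM in WT and 166, 122 and 150 CPM in KO cells (log2 1.138 ± 0.14, limma adjusted p = 2.72e-09), and 0.91 with total counts scaling. Zfp462 had a difference of 0.94 ± 0.17 in that fraction (limma adjusted p = 1.25e-05) and of 1.11 without KO replicate 2. Zfp219 had −0.84 ± 0.12 in monosomes (limma adjusted p = 3.32e-07), with 306, 310 and 284 CPM in WT and 181, 157 and 168 in KO cells. For Zfp143 and Zfp296, which are tied to pluripotency, log2 differences in the fractions lay between −0.59 and 0.52.

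Members that act on ribosomes and RNA are described singly, since they are too few to set against the shares of all genes. Zfp598, a ubiquitin ligase that senses collided ribosomes, had log2 differences of −0.67, −0.49 and −0.55 in the 3 fractions, none past the fold threshold. Zfp207, a spindle protein that binds BUB3, was the most abundant member with a mean of 367 CPM, followed by Zfp106, an RNA-binding protein, with 343 CPM. Counts of 3′ ends do not grow with message length, so these levels can be set side by side. Their log2 differences were between −0.36 and 0.02 in every fraction. Zfp91, a ubiquitin ligase, had at most 0.58, in low polysomes. Zfp346, Zfp326, Zfp638 and Zfp830, all RNA-binding or splicing proteins, had no call in any fraction, and neither did Zfp703 or Zfp704. Zfp346 passed in high polysomes without WT replicate 3 (−1.04) and without KO replicate 1 (−1.03). Zfp593 and Zfp622, which act on the ribosome, are described next.

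The change in translation level from WT to KO cells was called for 23 members. It was higher in KO cells for 8 (6.29% of all genes tested) and lower for 15 (8.81%). The medians were −0.12 over the members and 0.01 over all genes, and 0.06 over the 98 members that passed in all libraries, so the sign of the small shift depends on which members are counted. In single gradients, all 3 KO ratios were above all 3 WT ratios for 28 members (20.3% of all genes) and below them for 36 (21.4%), both lower shares than over all genes. Scaled by library totals alone, 3 members were called higher and 38 lower, but the median over all genes moved to −0.32, and the members median was −0.45. The TMM factors of KO high polysome libraries were 0.875 to 0.904, against 1.03 to 1.07 in WT high polysomes.

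Zfp706, a protein with 1 finger and 228 coding bases that ESCs need for timely exit from self-renewal, changed most among well counted members. It had 264, 265 and 243 CPM in WT monosomes and 234, 198 and 284 in high polysomes, and 377, 397 and 393 against 82.0, 80.5 and 104 CPM in KO cells. KO libraries were above WT in monosomes and below WT in both polysome fractions. The change was −2.01 ± 0.18 (limma adjusted p = 9.20e-11), a 4.02-fold difference of ratios. Zfp664 had 97.8, 69.1 and 91.1 CPM in WT monosomes and 54.2, 61.3 and 65.0 in high polysomes, and 54.5, 66.4 and 54.8 against 12.6, 10.6 and 13.3 CPM in KO cells, a change of −1.76 ± 0.25 (limma adjusted p = 9.50e-07). Its low polysome call of −1.04 fell short of the fold threshold without WT replicate 3 (−0.97) and without KO replicate 2 (−0.94).

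Zfp428 had a change of −1.57 ± 0.19 (limma adjusted p = 6.38e-08), from ratios of 0.36 to 0.84 in WT to ratios of −1.14 to −0.63 in KO gradients. Zfp771 changed by −1.54 ± 0.30 (limma adjusted p = 1.17e-04) and Zfp580 by −1.48 ± 0.37 (0.00245). Zfp593, whose yeast counterpart works in maturation of the large ribosomal subunit, had 150, 137 and 142 CPM in WT and 40.0, 48.8 and 49.4 CPM in KO high polysomes, while its monosome values of 117, 113 and 125 and of 102, 97.1 and 113 were closer. The change was −1.45 ± 0.19 (limma adjusted p = 1.37e-07).

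Among the higher ones, Zfp367 had 27.5, 38.1 and 48.6 CPM in WT monosomes and 11.3, 17.7 and 17.2 in high polysomes, and 47.8, 55.1 and 36.8 against 45.3, 55.6 and 58.1 CPM in KO cells. The genotypes overlapped in monosomes and were apart in both polysome fractions. The change was 1.46 ± 0.31 (limma adjusted p = 3.37e-04). Zfp827, which recruits the NuRD complex to telomeres, had 15.6, 14.1 and 11.5 CPM in WT and 53.9, 55.9 and 55.6 CPM in KO high polysomes, a 4.05-fold difference (log2 2.02 ± 0.19, limma adjusted p = 8.11e-12), and a change of 1.40 ± 0.30 (3.74e-04). Zfp622, a factor of large ribosomal subunit maturation, had ratios of −0.21 to 0.04 in WT and of 0.85 to 1.02 in KO gradients. Its change of 1.02 ± 0.21 (limma adjusted p = 2.02e-04) lay at the fold threshold and was 0.92 without WT replicate 2, 0.97 without KO replicate 3 and 0.69 with total counts scaling.

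Zfp609, a partner of the cohesin loader and the Integrator complex, had 28.1, 29.6 and 28.0 CPM in WT and 52.9, 49.1 and 49.0 CPM in KO high polysomes, and a change of 1.08 ± 0.29 (limma adjusted p = 0.00372). Without WT replicate 1 it was 0.88 with an adjusted p of 0.0586, and without KO replicate 3 it was 0.99. With total counts scaling it was 0.75. Zfp773 had 48.2, 46.5 and 62.8 CPM in WT monosomes and 3.12, 3.60 and 4.78 in high polysomes, and 38.9, 56.3 and 40.7 against 7.27, 8.08 and 10.1 CPM in KO cells. Its change of 1.31 ± 0.40 (limma adjusted p = 0.0118) was lost without WT replicate 1 (adjusted p = 0.0515) and without KO replicate 3 (0.0841), and by total counts scaling (0.0601). The members called outside the naming rule were Zfp185, Zfp341 and Zfp282 among the higher ones. On the lower side they were Zfp120, Zfp3, Zfp982, Zfp410, Zfp821, Zfp938, Zfp260, Zfp511 and Zfp639, with log2 changes of −2.33 to −1.09. Zfp120 had at most 3 counts in each WT monosome library and reached the member level in 0 WT and 3 KO libraries. Zfp982 reached it in 7 WT and 2 KO libraries. Zfp120 and Zfp982 thus each passed through the genotype in which it was high. The other members called in the change reached the level in at least 3 libraries of both genotypes.

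**Figure D4:**
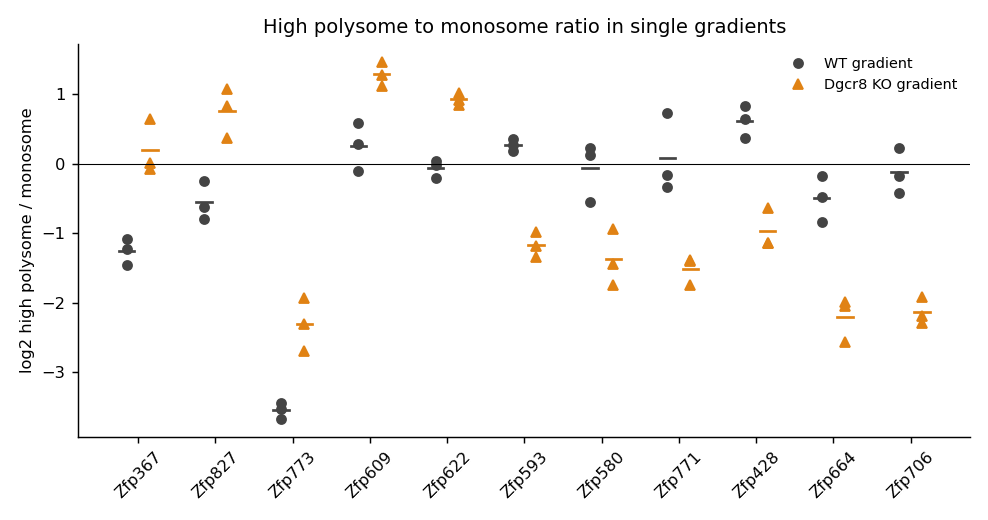
Log2 ratio of high polysomes to monosomes (y axis) in each of 3 WT (circles) and 3 Dgcr8 KO (triangles) gradients for 11 named Zfp genes whose translation level changed, with the mean as a bar. For 8 of these genes the rule that named them required KO ratios all above or all below the WT ratios. The changes run from Zfp367 with a change of 1.46 to Zfp706 with −2.01.

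The letters of the ESCC seed match were held by 6 of the 8 members called higher in translation level and by 3 of the 15 called lower. Of the 70 members with the letters, 6 were called higher (8.57%) and 3 lower (4.29%). Of the 142 without them, 2 were higher (1.41%) and 12 lower (8.45%). Over all genes tested, 310 of 3526 with the letters were called higher (8.79%) and 235 lower (6.66%). Of 8242 without them, 463 were called higher (5.62%) and 844 lower (10.2%). With the letters, the share of members called higher was thus near that of all genes. Without the letters it was below that of all genes. The median change was −0.04 over members with the letters and −0.14 over those without, against 0.12 and −0.06 over all genes. In high polysomes, 5 members with the letters were called higher and 10 lower, and 3 and 22 of those without. Over all genes in that fraction, 758 with the letters were higher and 420 lower, and 1126 and 1631 of those without. Members with the letters were thus more often lower than higher, while all genes with them were more often higher. As shares of the 70 members and the 3526 genes with the letters, these differed more in calls higher than in calls lower.

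One match is shown for each of 6 members whose translation level was called, in a window of 22 bases of the 3′ UTR with the letters in capitals, read along the message. Zfp367 (minus strand, chr13:64133608-64133629) held 4 matches, and the one shown has an A on both sides of the letters. Zfp827 (plus strand, chr8:79193130-79193151) held 3, Zfp609 (minus strand, chr9:65695044-65695065) held 2, and Zfp773 (minus strand, chr7:7131261-7131282), Zfp622 (plus strand, chr15:25997314-25997335) and Zfp706 (minus strand, chr15:37000452-37000473) held 1 each, all in the last exon on GRCm38.
Zfp367: aacttggaGCACTTataagtat
Zfp827: cttttttaGCACTTtggaaaga
Zfp609: agagtaagGCACTTgccccacc
Zfp773: caagggtgGCACTTgaacactg
Zfp622: ctcccgctGCACTTccctcctt
Zfp706: taaatcgtGCACTTgattctat
The first 5 belong to messages whose translation level was called higher after loss of DGCR8, and Zfp706 is from one with a lower level. In Zfp367 and Zfp827 the match extends to base 8 of the seed, and in the other 4 it does not.

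Coding length moved with the change. Members of 228 to 1497 coding bases had a median change of −0.48, with 4 called higher and 14 lower of 71, those of 1500 to 1929 bases −0.15, with 0 higher and 1 lower of 70, and those of 1935 to 8094 bases 0.12, with 4 higher and 0 lower of 71. All genes tested in the same ranges had medians of −0.37, 0.20 and 0.49, and of them 2.27%, 7.11% and 14.3% were called higher and 15.2%, 2.45% and 0.693% lower. Short members were near other short genes, while members of the 2 longer ranges were below other genes of their length. Across 212 members the Spearman correlation of coding length with the change was 0.35, and across 11768 genes it was 0.558. Genes of 1 set of libraries are not independent points. The number of fingers had a correlation of −0.063 with the change. The part of coding length in the seed match counts was not tested.

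**Figure D5:**
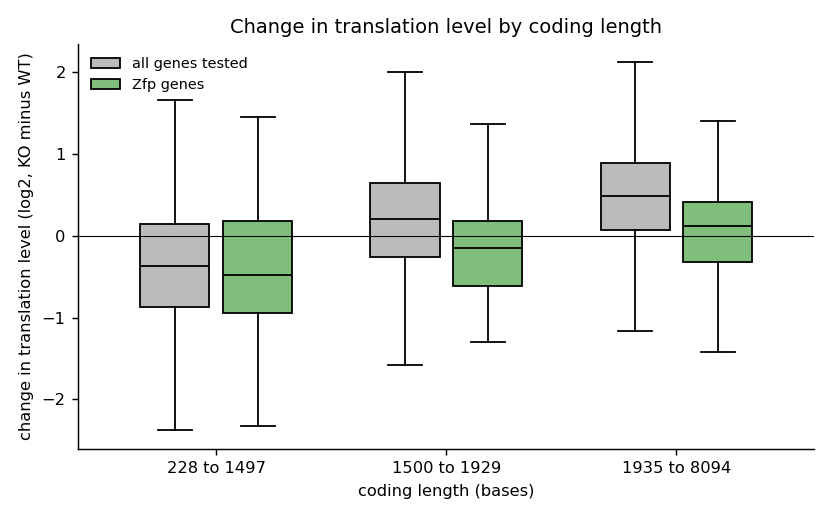
Change in translation level (y axis, log2, KO minus WT) of all genes tested (grey) and Zfp genes (green) in 3 ranges of coding length (x axis, bases). Boxes span the quartiles with the median as a line, and whiskers reach the last value within 1.5 box heights. Zfp medians are −0.48, −0.15 and 0.12 from short to long, and those of all genes −0.37, 0.20 and 0.49.

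Neighbouring genes did not share 1 level. Members in clusters had a median translation level of −0.76 in WT and −1.09 in KO cells over 111 genes, and those outside −0.43 and −0.46 over 102. The largest cluster, of 8 members at chromosome 7 from 29768552 to 30134950 on GRCm38, held 7 with KRAB letters. Its WT levels ranged from −1.70, in Zfp566, to 0.67, in Zfp84, and Zfp568, at 0.50, lies in it. A cluster of 7 KRAB members on chromosome 17, from 32765496 to 33033402, ranged from −1.42 to 0.05 in WT and from −1.26 to 0.01 in KO cells, with 3 called lower in each genotype. Reads were kept only where they aligned to a single locus, so counts of near-identical neighbours are uncertain.

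Checks of the samples touched these results in the following ways. Dgcr8 was called lower in KO high polysomes, at 14.5, 22.99 and 8.73 CPM against 26.1, 27.4 and 29.6 CPM in WT. It was not called in monosomes (log2 −0.56 ± 0.19) or in low polysomes (−0.45 ± 0.17). KO monosomes still held 47.3, 52.0 and 51.3 CPM, against 76.3, 68.4 and 79.6 CPM in WT. A 3′ end count does not read a deletion elsewhere in the gene. Summed levels of 9 naive ESC markers were 3340 to 3470 CPM in WT and 3560 to 4020 CPM in KO monosomes and 5510 to 6050 and 3150 to 3840 CPM in high polysomes, apart in both, and those of low polysomes overlapped. For 6 feeder fibroblast markers the sums were 10.4 to 16 and 3.56 to 23.4 CPM over the fractions, apart in high polysomes (10.4 to 16 and 6.62 to 8.95 CPM), with Postn at 0 in 15 libraries. For 5 primitive endoderm markers they were 3.44 to 11.5 and 2.05 to 8.62 CPM, also apart in high polysomes (7.51 to 11.5 and 3.36 to 6.62 CPM). For 4 epiblast-like markers the sums were apart in low polysomes (98.7 to 118 and 77.4 to 94.5 CPM) and high polysomes (135 to 149 and 92.8 to 110 CPM) and also in monosomes (125 to 138 and 102 to 124 CPM). Those of 8 genes of 2-cell-like cells were 0.326 to 2.69 CPM in WT and 7.38 to 22.8 CPM in KO libraries without overlap, with Zscan4f and Duxf3 at 0 in all 18, and those of 4 neural markers 57.9 to 140 and 25.8 to 49.2 CPM, also without overlap. Markers of 1 list did not all move alike. Of the epiblast-like ones in monosomes, Otx2 had means of 59.9 CPM in WT and 64.6 in KO cells. Pou3f1 had 13.2 and 1.82 CPM there and Dnmt3b 57.3 and 44.2, while Fgf5 was at 0 in 16 libraries. The marker sums are plain CPM, and whether groups stay apart after TMM scaling was not tested. The part of these marker shifts in the differences of members was not tested either.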

How the data were processed

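Counts of 3′ end reads (QuantSeq 3′ FWD) from 18 libraries, 6 groups of 3, were analysed. The deposited counts are raw and were made by the authors with cutadapt 1.14, STAR 2.5.3a on mm10 (reads with 1 locus only) and strand-specific featureCounts 1.5.3 over the GENCODE M14 annotation. No step on molecular identifiers is given, so PCR copies count as reads and floors cover counting error only. The 92 spike-in rows (at most 0.00215% of reads) were left out. CPM printed per library for single genes are scaled by TMM factors. Membership, summed levels of members and sums of markers used plain CPM. Symbols, coordinates (GRCm38, 1-based) and transcripts came from GENCODE M21, which matched 51274 genes.

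The 12851 genes that reached 3 CPM in 3 libraries, all 213 members among them, entered limma-voom (limma 3.58.1, R 4.3.3) after TMM scaling (edgeR 4.0.16), with 6 group means and no block. An interaction term between genotype and fraction gave the change in translation level. The tests are two-sided, and p-values were adjusted by Benjamini-Hochberg across these genes. The choice of limma, of the interaction and of the filter comes from the methods of the study. Errors of log2 values are SE. Ratios in single gradients used a prior count of 2. A group with at most 3 counts in each library gives a bound, from 3 counts per library. Whether equal replicate numbers pair the samples was checked by correlating deviations from group means. In high polysomes all 3 WT and KO pairs of 1 number were over 0.1 (0.158, 0.154 and 0.195) and pairs of unequal number were −0.198 to 0.026. In monosomes and low polysomes equal numbers gave −0.043 to 0.114 and 0.062 to 0.208, and fractions of 1 gradient 0.013 to 0.303. The labels name no shared day. The fit was tested on simulated counts.

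Fingers were matched in coding sequences translated here, as cysteine, 2 to 4 residues, cysteine, 12 residues, histidine, 3 to 5 residues, histidine. KRAB letters were 2 short patterns of the KRAB A box, and a looser form, chosen after seeing the data, found 93 members in place of 88. The transcript was the APPRIS principal one, or the longest coding one. Members, gene lists and the naming rule were chosen with earlier results of these data known. Named were members with a set role, then for each KO against WT comparison and for the change the 4 higher and 4 lower members with the largest change among those called (mean count of 50 or more, groups not overlapping), the 3 highest and 3 lowest in WT translation level among those called, and members called in all 3 fractions. Other genes named were chosen after their values were seen. Alternatives were edgeR, DESeq2 1.42.0, other scalings, filters, member lists and blocks, and leaving out gradients.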

Additional observations from a re-analysis of the deposited data

Results flagged for a closer look

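The translation level differed between the genotypes, by the interaction test of limma across all genes, for 8 members with a higher and 15 with a lower level in KO cells. Among the named members, the log2 change was 1.46 for Zfp367, 1.40 for Zfp827, 1.31 for Zfp773, 1.08 for Zfp609 and 1.02 for Zfp622, and −1.45 for Zfp593, −1.48 for Zfp580, −1.54 for Zfp771, −1.57 for Zfp428, −1.76 for Zfp664 and −2.01 for Zfp706.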

How the results depend on the processing

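Depth limited the sparse members, and groups of 3 were too small for a check of single outlying libraries. Counts of calls stayed within 1.5 times the reported count, and medians within the spread between replicates, in 199 of 236 alternatives, and the following did not. With the adjusted p alone, calls rose to 52, 75 and 92 in monosomes, low and high polysomes, to 105 in WT translation level and to 36 in the change. With total counts scaling, the change had 41 calls (3 higher, 38 lower) and medians became −0.45 for the change, −0.453 in high polysomes, −0.473 in WT and −1.013 in KO translation level. Without a filter the medians were −0.460 in WT and −0.704 in KO translation level, while those of all genes were −0.563 and −0.548. With the stricter filter (158 members tested) they were −0.611 and −0.833, −0.269 in high and −0.125 in low polysomes. With membership at 10 CPM the median change was −0.017. Over the 98 members at 5 CPM in all libraries, a list added after seeing the data, calls were 6, 11 and 19 in the fractions, 15 in WT and 30 in KO translation level and 13 in the change, and medians were −0.104 in high polysomes, −0.323 and −0.392 in translation level and 0.063 for the change. Leaving out 1 gradient gave medians of −0.112 to −0.027 in low and −0.279 to −0.149 in high polysomes, −0.63 to −0.478 in WT and −0.807 to −0.702 in KO translation level. Calls stayed within the limits without 1 gradient, at 17 to 21, 31 to 37 and 37 to 46 in the fractions, 55 to 68 and 90 to 97 in translation level and 18 to 22 for the change. So did the median change, at −0.174 to −0.064, and the median in monosomes, at −0.167 to −0.065. The cause of the moves past the limits was not tested, other than where fewer genes or members enter.

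With the number as a replicate block, calls were 19, 33 and 42 in the fractions, 67 and 96 in translation level and 22 for the change, and with the gradient as the block 67, 95 and 22 in the last 3, and neither block changed a call of a named member. Of 86 calls of 46 named members, 63 held under all 15 alternatives run on them and 0 reversed.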
